A study of Mus musculus with 76 samples.

Results

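The genes described here encode the proteins of the cytosolic ribosome. They were chosen by name: protein-coding genes with the symbol Rpl or Rps and a number, with or without a following a, x, y or l, together with Rplp0, Rplp1, Rplp2 and Rpsa. Of the 56923 genes in the count tables, 82 met this rule, 50 of the large and 32 of the small subunit, and their many pseudogenes were left out. RNA and chromatin had been collected from the diencephalon of C57BL/6J mouse embryos that were either wild type or homozygous for the hs754-humanized allele, in which human sequence replaces the mouse copy of the enhancer hs754. The humanized allele is 1 line, made by CRISPR editing in C57BL/6J embryos and backcrossed to that strain. Embryos of both genotypes, with no further treatment, came from embryonic days E11.5 and E17.5. Each genotype and stage had 4 RNA samples, and each of these was a pool from a single litter, of 6 embryos at the early and 3 at the late stage. Wild type peak lists of histone H3 marks were used from 2 replicates per mark at E11.5 and 3 at E17.5. The RNA was selected by its poly(A) tail, and the samples held between 16414369 and 24272569 counts on genes.

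In the ribosome, the small subunit reads the mRNA and the large subunit joins the amino acids. Each ribosome holds a single copy of most of these proteins, and cells keep their production in balance. Their mRNAs commonly begin with a run of pyrimidines, the TOP motif, through which mTOR signalling and LARP1 set how much of each is translated. Growing and dividing cells, such as the progenitors of the early neural tube, make ribosomes at a high rate, and inherited loss of single ribosomal protein genes is known for anaemia and malformations in humans and mice.

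The tissue label was checked against its markers. Tcf7l2, a transcription factor of the thalamus, had 1329, 907, 1056 and 877 CPM (counts scaled to library size, with TMM factors over the 16 samples) in the 4 wild type samples at E11.5 and 1359, 1258, 1183 and 1019 CPM at E17.5. In the humanized samples it had 955, 909, 686 and 1002 CPM and 1302, 1315, 1098 and 1361 CPM. It was abundant in all 16 samples. The 10 diencephalon markers summed to between 943 and 1773 CPM at E11.5 and between 1500.4 and 1894 CPM at E17.5. Rax, a factor of the early hypothalamus and eye field, stayed under 1 CPM in every sample and had no count in 3, and the other 9 were detected in all. Of the genes of neighbouring regions that are reported here, En1 and En2, factors of midbrain and anterior hindbrain, reached at most 5.29 and 11.4 CPM, the cortical factor Emx1 at most 1.95 CPM and the hindbrain factors Hoxb4 and Hoxa5 at most 0.191 and 0.152 CPM. All 6 neighbouring region markers summed to between 2.73 and 17.0 CPM at E11.5 and between 14.6 and 32.9 CPM at E17.5. Meningeal fibroblast markers were abundant, with sums between 1357 and 1857 CPM at E11.5 and between 338.8 and 705 CPM at E17.5.

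A single library stood apart from its group before any gene was compared. E17.5 wild type replicate 1 had 8.28 reads outside annotated features per 100 counts on genes, whereas the other 7 libraries of E17.5 had between 19.8 and 28.1. Genes that are not ribosomal also rose with GC content in this library, by 1.06 on the log2 scale per 10 percentage points of exonic GC relative to the E17.5 mean, and the corresponding slopes of the other 7 libraries lay between -0.43 and 0.05. Marker genes of several cell types were highest in it as well. Summed erythroid markers had 1021 CPM against 242 to 457 CPM in the other 3 wild type samples of E17.5, microglial markers 80.4 against 35.0 to 37.97, endothelial markers 409 against 227 to 281 and meningeal markers 705 against 407 to 469. Progenitor and cell division markers had 849.9 against 581 to 659.8 CPM, astrocyte markers 437 against 332 to 392 and oligodendrocyte lineage markers 201 against 159 to 175. Neighbouring region markers had 32.9 against 16.6 to 19.1 CPM and diencephalon markers 1861 against 1500.4 to 1746 CPM. Neuron and choroid plexus sums lay inside the range of the other 3 samples. Csf1r, Kdr and Col3a1 were the most abundant microglial, endothelial and meningeal markers. The part of these differences in the level of the ribosomal protein genes was not tested. The main counts and medians of the family are given below with and without this library.

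Ribosomal protein mRNAs took a large part of the polyadenylated RNA, and more of it at E11.5 than at E17.5. In wild type at E11.5, 3.55%, 4.36%, 3.20% and 3.74% of the gene counts lay on the 82 genes, a mean of 3.71% ± 0.488 (SD, n = 4). In wild type at E17.5, the shares were 2.197%, 1.34%, 1.92% and 1.68%, a mean of 1.78% ± 0.364 (SD, n = 4). All 4 early samples thus lay above all 4 late samples, and the highest late share was that of replicate 1. The humanized embryos had 4.56%, 4.16%, 4.53% and 3.77% at E11.5 (mean 4.25% ± 0.371, SD, n = 4) and 1.44%, 1.22%, 1.88% and 1.55% at E17.5 (mean 1.52% ± 0.277, SD, n = 4). The mean share at E11.5 was 2.08 times that at E17.5 in wild type, 2.25 times without E17.5 replicate 1, and 2.79 times in humanized embryos. Reads that mapped to several places were counted on no gene. They numbered 5.08 to 5.56 per 100 gene counts at E11.5 and 4.86 to 6.71 at E17.5. The part of them that came from the family is not known, and 316 annotated pseudogenes are named after its members. In bulk tissue, fewer cells of a type and less RNA per cell cannot be told apart.

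**Figure D1:**
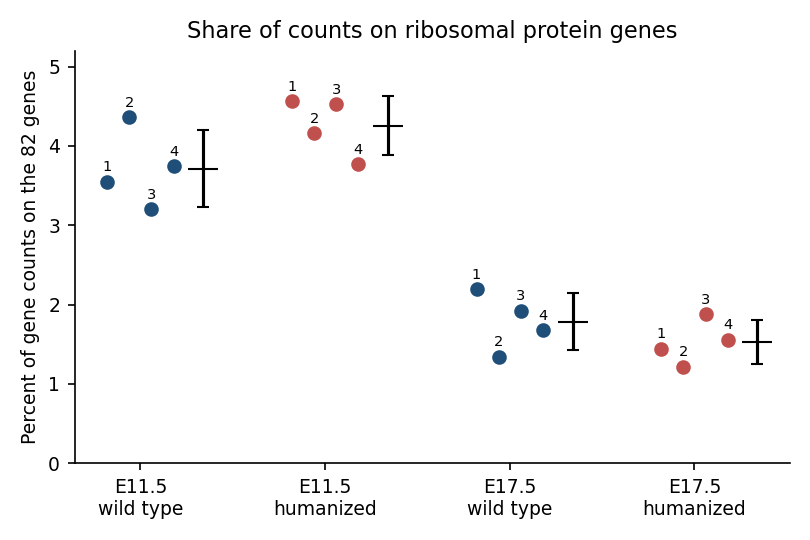
Share of gene counts on the 82 ribosomal protein genes (y axis, percent) in each RNA sample, by stage and genotype. Points are samples with their replicate numbers, and the bars beside them give the mean and SD of 4 samples. Every E11.5 sample lies at 3.20% or above and every E17.5 sample at 2.197% or below.

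Within the family, levels were compared between genes as CPM per kb of coding sequence, averaged over the 8 wild type samples. Filtering on low counts kept 77 of the 82 genes. The 75 of them whose coding bases were not mostly shared with another gene had a median level of 685 CPM per kb, with quartiles of 514 and 918, and the 14353 protein-coding genes tested in wild type had a median of 17.9. Coding GC content was similar, with medians of 52.7% and 53.2%, and the coding sequences were shorter, with medians of 453 and 1425 nucleotides. Rpl41, which encodes the shortest and most basic of these proteins, had the highest level of the family at 3187 CPM per kb. It was followed by Rps24 with 1719 CPM per kb. Rps26, with 1194 CPM per kb, Rps27, with 1190.0, and Rpl31, with 1145, came next, and their order was not distinguishable from the spread between samples. Because whole transcripts are counted, a short coding sequence such as the 138 nucleotides of Rpl41 raises a gene on this scale. Reads that mapped to several places are missing from it, and their number per gene is not known. The levels of the 75 genes at the 2 stages followed each other closely in wild type, with Pearson's r = 0.952 and Spearman's rho = 0.921 across genes, which share the same libraries.

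The low end of the family held 3 kinds of genes. Rpl10l, Rpl3l and Rpl39l, which are relatives of Rpl10, Rpl3 and Rpl39 known from testis or striated muscle, had 0, 2 and 20 counts in all 16 samples together. Rps4l, an autosomal relative of the X-linked Rps4x, had 40.6 CPM per kb and was the lowest of the 75. The remaining kind were genes whose coding bases lie under a second annotated gene on the same strand, where a read fits both and is set aside as ambiguous. These were Rpl13a (97.5% of coding bases), Rpl36al (95.3%), Rps10 (92.1%) and Rpl24 (83.4%). Rpl24 and Rpl36al did not pass the filter with 128 and 57 counts in all samples, and Rps10 had 540 counts while its annotated pseudogenes had 5147. Low counts of these 4 genes are therefore not read here as low RNA. The overlaps are those of GENCODE release M39, and their part in the low counts was not tested. The peak lists showed H3K4me3 and H3K27ac peaks at the promoters of all 4. A further limit applies to Rpl23a, where genes on the other strand cover 55.3% of the coding bases. Its count restricted to the main strand was 11.7 times the unstranded count used here.

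The promoters of the family shared a sequence feature. RefSeq promoter windows, from 250 bases before to 50 bases after a gene's start, were at hand for 61 of the 82 genes (73 windows, GRCm38.p6). A run of at least 8 pyrimidines that lay wholly or in part within 50 bases of the start, on the strand of the gene, was found in 80.8% of the 73 windows, in 35.1% of the 15311 windows of genes tested in wild type and in 37.8% of all 32851 windows. The median length of the longest run was 10 bases in the family and 6 bases in the windows of tested genes. For 20 of the relatives, their parents and members with known roles, a stretch of 30 bases around the run, or around the start where no run reached 8 bases, was matched to GRCm39, and 13 of the 20 are shown here. They are all 4 stretches without a run of 8 bases and 9 with one, among the latter Rps27 and Rpl22 each with its relative. Each stretch shown begins between -26 and 62 bases from the GENCODE start, and capitals mark the longest run of pyrimidines where it reached 8 bases. The Rps27l stretch ends in a second run of the same length, which is left in small letters.
Rpsa: ggagcggaagTTCTCCCTTTTTgcttagcc
Rps6: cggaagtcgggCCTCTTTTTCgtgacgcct
Rpl5: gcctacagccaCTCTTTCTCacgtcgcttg
Rpl11: tatgCCTCTCTTTCCCCCTCTCCCCTCgtt
Rps27: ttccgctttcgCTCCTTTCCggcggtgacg
Rps27l: ccccgcctccaCTCCTCTCCactcctcccc
Rpl22: cccgtctgaCTCCTCCCTTTCCCgacagcc
Rpl22l1: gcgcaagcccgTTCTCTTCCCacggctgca
Rpl10l: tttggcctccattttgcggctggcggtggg
Rpl39l: aacacccactgCCTCTCCCTagctcccagg
Rplp0: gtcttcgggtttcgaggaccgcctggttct
Rps4x: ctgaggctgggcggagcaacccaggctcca
Rpl7l1: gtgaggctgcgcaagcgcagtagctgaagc

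In GRCm39 these stretches lie for Rpsa at chr9:119956767-119956796 (plus strand), Rps6 at chr4:86775587-86775616 (minus strand), Rpl5 at chr5:108048363-108048392 (plus strand), Rpl11 at chr4:135780747-135780776 (minus strand), Rps27 at chr3:90120939-90120968 (minus strand). Those of the remaining genes lie for Rps27l at chr9:66853335-66853364 (plus strand), Rpl22 at chr4:152410135-152410164 (plus strand), Rpl22l1 at chr3:28859647-28859676 (plus strand), Rpl10l at chr12:66331161-66331190 (minus strand), Rpl39l at chr16:9988055-9988084 (plus strand), Rplp0 at chr5:115697511-115697540 (plus strand), Rps4x at chrX:101232983-101233012 (minus strand), and Rpl7l1 at chr17:47093568-47093597 (minus strand).

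Of the 20 stretches, 16 held a run of at least 8 pyrimidines. In Rplp0, Rps4x and Rpl7l1 the longest run near the start had 7 bases and in Rpl10l 5 bases, so that both abundant and scarce members lacked one. The longest was the 23-base run of Rpl11, most of which lay beyond 50 bases before the RefSeq start. Rps27 and its relative Rps27l both had runs of 9 bases, and so did Rpl39l, which had almost no RNA in this tissue. Short motifs were searched in the same 300 bases on both strands. CTTTCC was in 50.7% of the family's windows and 26.5% of those of tested genes, CTCTTT in 43.8% and 19.7%, and CTTTTC in 23.3% and 19.6%, and these 3 can overlap each other and the run. The ETS core CCGGAAG was in 35.6% against 15.1%, the palindrome CTCGCGAG in 11.0% against 1.68% and AAGATGGCG, which resembles the YY1 motif, in 6.85% against 2.49%. The GC box GGGCGG was in 58.9% against 59.9%, CCAAT in 31.5% against 37.1% and TATAAA in 8.22% against 7.57%. A match is a stretch of letters and not a measured binding site.

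Chromatin at these promoters carried the marks of active genes. H3K4me3, which marks active promoters, had a peak within 500 bases of the start of 79 of the 82 genes (96.3%) in every wild type list at both stages, against 89.4% of the 14353 protein-coding genes at E11.5 and 89.7% at E17.5. H3K27ac, a mark of active promoters and enhancers, had a peak at 79 genes in every list at E11.5 and at 78 at E17.5, against 68.2% and 82.1% of the protein-coding genes. The 3 genes without either mark were Rpl3l, Rpl10l and Rpl39l, the same 3 that were scarce in the RNA without lying under another gene. Rps4l had both marks except for H3K27ac in 1 list of E17.5. H3K27me3, the mark of Polycomb repression, lay within 500 bases of no member in every list at E11.5 and of 1, Rpl3l, at E17.5, where 21.0% and 19.7% of protein-coding genes had it. CTCF, an insulator protein mapped at E17.5, had a peak near 43 of the 82 starts (52.4%) in every list, against 40.8%. The paper reports that its lot of H3K27ac antibody also bound acetylated histone H2B. The H3K27ac peaks here and below may therefore hold both.

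The H3K4me3 peaks of the family were narrower at E17.5 than at E11.5. Averaged over the lists of a stage, the highest peak at a member's promoter had a median width of 3251 bp at E11.5 and 2525 bp at E17.5, whereas protein-coding genes had medians of 2280 and 2329 bp. The mean width was lower at E17.5 for 75 of the 79 members. In 65 of the 79 every list of E17.5 gave a narrower peak than every list of E11.5, against 28.2% of 12719 protein-coding genes, and in 0 members was it the other way round, against 34.1%. Rps24 had peaks of 4193 and 4336 bp in the 2 lists of E11.5 and of 2191, 1752 and 2412 bp in the 3 lists of E17.5. Rpsa had 3013 and 3102 bp and then 2108, 2370 and 2480 bp. Rps4l differed from both, with peaks of 429 and 574 bp and then 440, 625 and 606 bp, and the stages overlapped. The lists of humanized embryos, read without chromosome 13 because its positions are shifted there, gave medians of 3164 bp for 78 members at E11.5 and 2468 bp at E17.5, against 2330 and 2244 bp for protein-coding genes.

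The height of the peaks, as fold enrichment over local background, also separated the marks. The H3K4me3 medians of the members were 66.2 at E11.5 and 60.2 at E17.5, where protein-coding genes had 47.9 and 54.8. For 20 of the 79 members every late list was lower, against 7.09%, and for 5 every late list was higher, against 33.9%. The H3K27ac medians were 18.7 at E11.5 and 28.2 at E17.5 for the members and 10.6 and 21.0 for protein-coding genes. In the lists of humanized embryos, without chromosome 13, the members' medians were 23.6 and 23.7, with almost no change between the stages, while those of protein-coding genes were 12.2 and 18.1. In the wild type lists, every late list was higher for 37 of 78 members, against 78.1% of 9606 genes, and lower for 3, against 2.95%. H3K27ac peaks of wild type were wider in every late list for 60 of the 78 members, against 83.9%, and narrower for 2, against 2.82%. The number of reads behind a list is not known from the lists, and 2 lists against 3 cannot pass a threshold of 0.05 in an exact test, so these counts are a description.

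**Figure D2:**
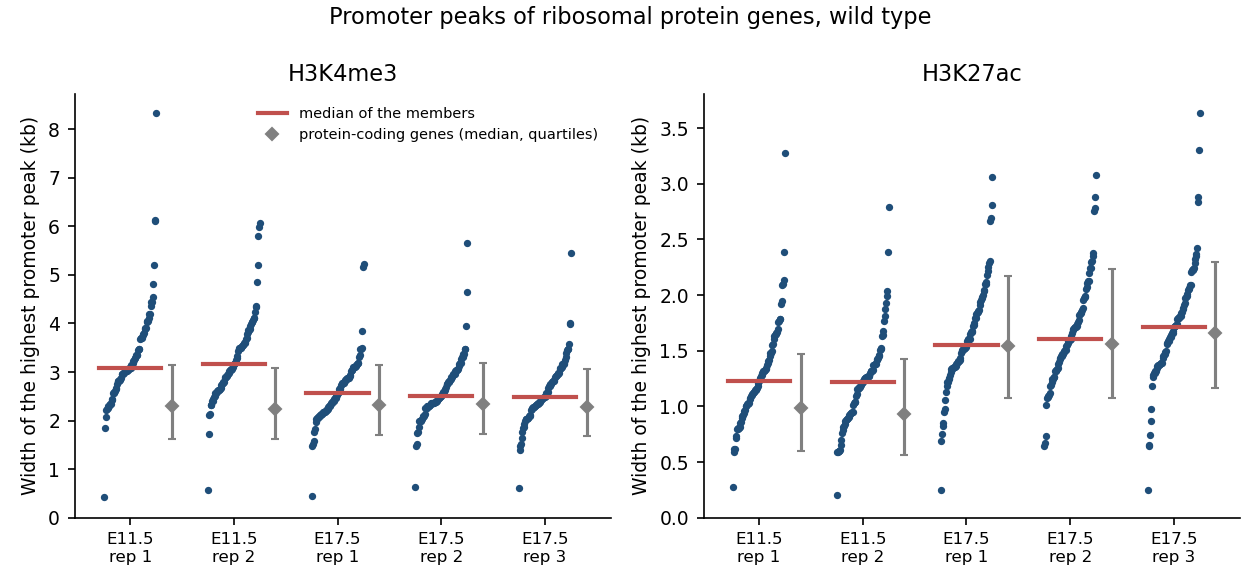
Width of the highest H3K4me3 (left) and H3K27ac (right) peak within 500 bases of the start (y axis, kb) in each wild type list. Dots are ribosomal protein genes in order of width, red lines their medians, and grey diamonds with bars the median and quartiles of protein-coding genes. The H3K4me3 peaks of the family have medians of 3083 and 3165 bp in the E11.5 lists and of 2490 to 2562 bp in the E17.5 lists.

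The stage comparison asked how the diencephalon changes between early neurogenesis and late gestation. From E11.5 to E17.5 in wild type, 67 of the 77 ribosomal protein genes tested fell (edgeR's quasi-likelihood test, adjusted over all genes tested, threshold 0.05), none rose, and 10 did not pass the test. Of all 18583 genes tested, 26.7% fell and 29% rose. The median log2 fold change of the 77 genes was -0.93, and that of all genes was -0.01 with TMM normalization. In 49 of the 77 genes, every late sample lay below every early one, a pattern found in 25.1% of all genes. Without E17.5 wild type replicate 1, 75 of the 77 genes fell, with a median of -1.18, where 36.3% of 19351 genes fell. In humanized embryos all 77 fell, with a median of -1.46, against 39.5% of 18781 genes that fell and 38.2% that rose, and in all 77 the late samples lay below the early ones, against 36.7% of all genes. Reads outside annotated features per 100 gene counts differed between the stages as well, with 11.9 to 16.8 at E11.5 and 19.8 to 28.1 in 7 of 8 libraries at E17.5, and the part of this in the result was not tested. Offsets for the length of the coding sequence, chosen after the data had been seen, gave 48 genes that fell in wild type and 74 in humanized embryos, with medians of -0.62 and -1.0.

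Both subunits took part. In wild type, 39 of the 45 large subunit genes and 28 of the 32 small subunit genes fell, with medians of -0.91 and -0.95. In humanized embryos all 45 and all 32 fell, with medians of -1.41 and -1.49.

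The fall was largest for Rps27l (chr9:66853340-66856808, plus strand), a relative of Rps27 known as a target of p53. It had 95.6, 123, 91.6 and 102 CPM in the 4 wild type samples at E11.5 and 29.01, 18.9, 32.2 and 26.6 CPM at E17.5. The stages did not overlap, and replicate 1 of E17.5 lay inside the range of its group (log2 fold change -1.96, SE 0.20, adjusted p = 1.91e-05). In humanized embryos it had 132, 108, 134 and 99.3 CPM and then 19.4, 17.3, 26.1 and 24.1 CPM, again without overlap (log2 fold change -2.46, SE 0.15, adjusted p = 3.24e-08). Rpl5 (chr5:108048367-108058471, plus strand), which carries 5S rRNA into the ribosome, had 783, 844, 798 and 811 CPM in wild type at E11.5 and 161, 322, 392 and 358 CPM at E17.5. Here replicate 1 was the lowest late sample, and the groups were far apart with or without it (log2 fold change -1.40, SE 0.25, and -1.20, SE 0.11, without it). Rps20, a protein of the head of the small subunit, had 335, 454, 359.9 and 394 CPM and then 144, 124, 189 and 164 CPM, and its late samples all lay below 200 CPM (log2 fold change -1.32, SE 0.18, adjusted p = 0.000145). Rpl13a (log2 fold change -1.40, SE 0.28, adjusted p = 0.0018), which carries the counting limit given above, was also among the 5 largest falls in wild type. In humanized embryos the 5 largest falls were those of Rpl13a (log2 fold change -2.53), Rps27l, Rps2 (-2.10), Rpl8 (-1.88) and Rpl18 (-1.82).

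Rpsa (chr9:119956755-119962787, plus strand), which encodes a small subunit protein also known as the laminin receptor, shows what the library that stood apart did to the wild type values. Its 4 samples at E11.5 had 1079, 1381, 935 and 1084 CPM, and those at E17.5 had 1264, 416, 459 and 425 CPM. Replicate 1 of E17.5 lay among the early samples and the other 3 lay between 416 and 459 CPM, so that Rpsa did not pass the test with all samples (log2 fold change -0.81, SE 0.35, adjusted p = 0.0731) and passed without replicate 1 (log2 fold change -1.39, SE 0.14, adjusted p = 2.06e-06). Humanized samples had 1520.4, 1381, 1509 and 1173 CPM at E11.5 and 454, 382, 443 and 407 CPM at E17.5, and the stages did not overlap (log2 fold change -1.74, SE 0.11, adjusted p = 5.16e-08). The proteins of the stalk, to which translation factors bind, behaved alike in this library. Rplp0 had 698, 257, 311 and 273 CPM in the late wild type samples after 697, 933, 611 and 730.2 CPM early (log2 fold change -0.96, SE 0.32, adjusted p = 0.0249). Rplp1 went from 193, 283, 172 and 209.7 to 215, 90.0, 135 and 115 CPM and missed the threshold (log2 fold change -0.64, SE 0.27, adjusted p = 0.0664), and Rplp2 went from 188, 243, 165 and 203 to 189, 74.8, 92.5 and 89.4 CPM (log2 fold change -0.85, SE 0.29, adjusted p = 0.0262). In each of the 3 stalk genes replicate 1 was the highest late sample and overlapped the early ones. When it was left out, their log2 fold changes came to -1.43, -0.94 and -1.24, and in humanized embryos, where the groups were apart, they were -1.78, -1.57 and -1.54.

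The 4 further members with known roles, Rps6, Rpl11, Rps19 and Rpl22, fell in both genotypes. Rps6, which S6 kinase phosphorylates in growing cells, had 709.9, 819, 597 and 697 CPM and then 397, 255, 316 and 301 CPM in wild type, without overlap (log2 fold change -1.16, SE 0.18, adjusted p = 0.000341). Rpl11, which with Rpl5 holds back MDM2 when ribosome assembly fails, had 469, 579, 397 and 483 CPM and then 408, 178, 271 and 244 CPM, with late replicate 1 inside the early range (log2 fold change -0.82, SE 0.25, adjusted p = 0.0161). Rps19, the gene most often affected in Diamond-Blackfan anaemia, had 185, 243, 184 and 206 CPM and then 112, 69.3, 102 and 84.5 CPM (log2 fold change -1.16, SE 0.19, adjusted p = 0.000491). Rpl22, an RNA-binding protein of the large subunit, had 351, 423, 337 and 378 CPM and then 222, 148, 180.4 and 168 CPM (log2 fold change -1.06, SE 0.17, adjusted p = 0.00046). The late samples of Rps19 and Rpl22 all lay below the early ones. In humanized embryos the log2 fold changes of Rps6, Rpl11, Rps19 and Rpl22 were -1.50, -1.48, -1.72 and -1.40.

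The smallest changes in wild type were those of Rps4l and Rpl15. Rpl15, a large subunit protein, had 388, 450.1, 347 and 374 CPM in wild type at E11.5 and 384, 288, 361 and 341 CPM at E17.5, and the groups overlapped (log2 fold change -0.19, SE 0.16, adjusted p = 0.335). In humanized embryos it had 469.8, 449, 462 and 397 CPM and then 312, 307, 326 and 330.1 CPM, and this was the smallest of the 77 falls (log2 fold change -0.49, SE 0.09, adjusted p = 0.000466). It was named after its values were seen. The 10 genes that did not pass the test in wild type were Rpsa, Rplp1, Rps14, Rpl36, Rpl35, Rpl39, Rps7, Rpl38, Rpl15 and Rps4l, and 8 of them passed without E17.5 replicate 1.

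**Figure D3:**
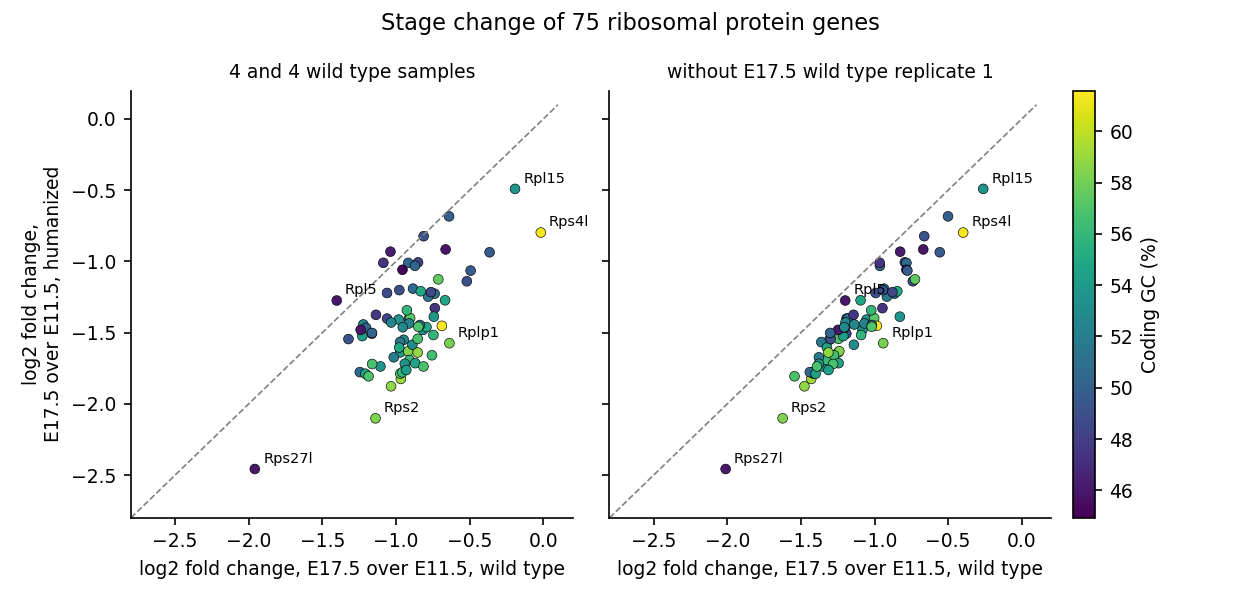
Log2 fold change from E11.5 to E17.5 of 75 ribosomal protein genes in wild type (x axis) and humanized embryos (y axis), with all wild type samples (left) and without E17.5 wild type replicate 1 (right). Each point is a gene, its colour is the GC content of the coding sequence, and the dashed line marks equal change. The points draw closer to one line on the right, where r across genes is 0.946, than on the left, where it is 0.620.

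Across the 75 genes, the log2 fold changes of the wild type and the humanized stage comparison, which share no sample, had r = 0.620 and rho = 0.471. Without E17.5 wild type replicate 1 these values were 0.946 and 0.933. Genes of one library are not independent replicates, so these correlations describe these libraries only.

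Relatives of single ribosomal proteins allowed the make-up of the family to be followed, as the share of the relative in the summed counts of a pair. Rps27l made up 21.2% ± 0.418 of the counts on Rps27 and Rps27l in wild type at E11.5 and 11.3% ± 1.47 at E17.5 (SD, n = 4 each). The humanized shares were 21.4% ± 1.07 and 12.1% ± 1.06 (SD, n = 4 each), and in both genotypes every late sample, at 13.2% or less, lay below every early one, at 20.1% or more. Rps27 itself had 369, 455, 341 and 370.1 CPM and then 288, 131, 242 and 204 CPM in wild type (log2 fold change -0.84, SE 0.23, adjusted p = 0.0109). Rpl22l1, which can take the place of Rpl22, had 33.6, 37.6, 36.1 and 37.8 CPM in wild type at E11.5 and 15.7, 25.7, 42.7 and 41.0 CPM at E17.5, and it passed the test in neither genotype (log2 fold change -0.22, SE 0.29, adjusted p = 0.527 in wild type and log2 fold change -0.28, SE 0.20, adjusted p = 0.224 in humanized embryos). Its share of the pair was 8.91% ± 0.638 and then 15.03% ± 6.04 in wild type, where late replicate 1, at 6.59%, lay below all early samples and the other 3 late samples had 17.8% ± 2.68 (SD, n = 3), and 7.998% ± 0.937 and then 15.7% ± 3.66 in humanized embryos, where the stages did not overlap (SD, n = 4 each). Rpl7l1, a relative of Rpl7 that acts in ribosome assembly, made up 16.7% ± 0.676 and then 13.7% ± 4.55 of its pair in wild type, with late replicate 1 highest at 20.5% and the other 3 at 11.46% ± 0.401 (SD, n = 3), and 18.6% ± 2.19 and then 11.8% ± 1.49 in humanized embryos (SD, n = 4 each). Rpl7l1 fell in wild type (log2 fold change -1.48, SE 0.18, adjusted p = 6.16e-05) and so did Rpl7 (log2 fold change -1.09, SE 0.20, adjusted p = 0.000863).

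Rps4x, the X-linked gene of a small subunit protein, had 915, 1144, 935 and 983 CPM and then 453, 377, 542 and 452 CPM in wild type (log2 fold change -1.14, SE 0.17, adjusted p = 0.000222). Rps4l had 32.4, 41.6, 22.8 and 31.3 CPM and then 53.4, 18.6, 28.4 and 26.9 CPM, its highest late sample being replicate 1, and its wild type change was near 0 (log2 fold change -0.02, SE 0.31, adjusted p = 0.967). In humanized embryos Rps4l had 36.0, 42.6, 37.1 and 30.9 CPM and then 22.3, 17.2, 24.7 and 20.7 CPM, without overlap (log2 fold change -0.80, SE 0.13, adjusted p = 0.000156). The share of Rps4l in its pair was 3.099% ± 0.515 and then 6.46% ± 2.75 in wild type (SD, n = 4 each), with 5.101% ± 0.467 in the late samples without replicate 1 (SD, n = 3), and 3.32% ± 0.373 and then 4.86% ± 0.425 in humanized embryos (SD, n = 4 each). In both genotypes every late sample, at 4.47% or more, lay above every early one, at 3.85% or less. The other 4 relatives were at or near 0. Rpl10l had no count in any sample, beside 14067 to 20742 counts of Rpl10 in single E11.5 samples, where 3 counts, the limit that a count of 0 allows, correspond to between 0.122 and 0.159 CPM. Rpl3l was at most 0.0142% of its pair, Rpl39l at most 0.0654% and Rpl36al, which carries the counting limit above, at most 0.189% in any sample. Their parents fell or not as the rest of the family did in wild type: Rpl3 (log2 fold change -0.97), Rpl10 (-0.74) and Rpl36a (-1.06) fell, and Rpl39 (-0.52, adjusted p = 0.0729) did not pass the test.

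Other genes of protein synthesis were followed as lists. Of 6 tested ribosomal proteins with names outside the rule, 5 fell in wild type, among them Rack1, a signalling scaffold on the small subunit (log2 fold change -1.17, SE 0.32, adjusted p = 0.0103). Of 18 translation factors and other TOP mRNAs, 10 fell and 1 rose. Eef1d, a subunit of the elongation factor that reloads eEF1A, fell (log2 fold change -1.18, SE 0.33, adjusted p = 0.0115) as did Eif3l of the initiation factor eIF3 (log2 fold change -1.19, SE 0.24, adjusted p = 0.00173), and Eif4a2, an initiation helicase, rose (log2 fold change 1.21, SE 0.37, adjusted p = 0.0179). Among 53 factors of ribosome biogenesis, 31 fell and none rose, with a median of -0.68. The largest falls there were those of Mybbp1a (log2 fold change -1.59, SE 0.28, adjusted p = 0.000642), a nucleolar protein that binds MYB, and Lyar (log2 fold change -1.52, SE 0.19, adjusted p = 6.74e-05), a nucleolar protein of growing cells. Of 14 regulators of ribosome synthesis, 6 fell and 1 rose. Eif4ebp1, an mTOR target that holds back cap-dependent initiation, fell from 6.25, 8.96, 5.11 and 6.89 CPM to 1.62, 1.14, 1.14 and 1.01 CPM (log2 fold change -2.47, SE 0.26, adjusted p = 2.06e-05), and Trp53 fell (log2 fold change -1.63, SE 0.29, adjusted p = 0.000779). Myc, a transcription factor that drives ribosome genes, rose from 11.4, 11.0, 9.76 and 9.29 CPM to 44.4, 26.8, 26.4 and 27.4 CPM (log2 fold change 1.58, SE 0.22, adjusted p = 0.00013), in the opposite direction to the family. Without E17.5 wild type replicate 1, 5 of 6, 17 of 18, 43 of 53 and 10 of 14 genes of these 4 lists fell in wild type and 0, 1, 2 and 2 rose. In humanized embryos 6 of 7, 17 of 18, 40 of 53 and 9 of 14 genes of these 4 lists fell, in the order given.

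Mitochondrial ribosomes and proteasomes served as reference complexes. Of 77 mitochondrial ribosomal proteins tested, 32 fell and none rose in wild type, with a median of -0.49, and Mrpl36 (-1.25) and Mrpl18 (-1.10) had the largest falls. The proteasome list was not limited to subunits, as it holds Psmc3ip, which encodes none and was among its largest falls. Of its 37 genes tested, 18 fell and 1, Psmb10 of the immunoproteasome, rose, with a median of -0.55. The cytosolic median of -0.93 was lower than either. With coding length offsets it was -0.62, and the medians of both reference lists with these offsets are not given here. Without E17.5 wild type replicate 1, 55 of the 77 mitochondrial ribosomal proteins and 33 of the 37 genes of the proteasome list fell. Their medians were -0.67 and -0.76, beside -1.18 for the cytosolic family. In humanized embryos the medians were -0.93 for both mitochondrial ribosomal proteins and the proteasome list, and -1.46 for the cytosolic family.

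Markers of cell types moved with the stage. All 8 markers of progenitors and cell division fell in wild type with a median of -2.82, from a summed level of 4718 ± 237 CPM to 681 ± 117 CPM (SD, n = 4 each), and Nes and Vim, the intermediate filaments of progenitors, were at -4.10 and -2.54. Of 6 neuron markers, 5 rose, with summed levels of 1791 ± 212 and 5767 ± 294 CPM (SD, n = 4 each), and all 5 astrocyte markers rose, from 57.8 ± 2.28 to 384 ± 43.3 CPM (SD, n = 4 each). Of 5 meningeal fibroblast markers, 4 fell and 1 rose, with sums of 1588 ± 210 and 507 ± 135 CPM (SD, n = 4 each). The summed erythroid markers went from 2560 ± 831 to 505 ± 356 CPM (SD, n = 4 each), with Hbb-y, an embryonic globin, the most abundant of them at E11.5 and near 0 at E17.5. This sum does not give the direction of every member. Of the 8 erythroid markers, 3 fell, 1, Hbb-bs, rose and 4 did not pass the test, and 5 fell and 1 rose without E17.5 replicate 1. Without E17.5 replicate 1 the late sums were 625 ± 40.1 CPM for progenitors, 5725 ± 346 for neurons, 367 ± 30.99 for astrocytes and 333 ± 112 for erythroid cells (SD, n = 3 each). That of meningeal fibroblasts was 441 ± 31.1 CPM (SD, n = 3). The part of these cell types in the change of the ribosomal protein genes was not tested.

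Between the genotypes, edgeR called 0 of the 77 ribosomal protein genes at either stage, where 0% of all genes tested were called, and DESeq2 also called 0 of them. At E11.5, 75 of the 77 genes lay above 0 with a median log2 fold change of 0.20, humanized over wild type. Of all 17816 genes, 8982 lay above 0, with a median of 0.003. In the family, 13 of the 77 genes had an unadjusted p under 0.05, against 5.94% of 17816 genes. The number with an unadjusted p under 0.05 was 1 without humanized replicate 1 and 65 without wild type replicate 2. It was 0 in 1 fit of all 16 samples, 28 with no filter and 6 with coding length offsets. The 5 smallest p-values were those of Rpl23a, Rpl10a, Rplp1, Rpl41 and Rpsa. Rpl23a, a protein at the exit of the nascent chain, had 62.8, 60.7, 39.1 and 57.3 CPM in wild type and 80.3, 73.7, 67.4 and 75.5 CPM in humanized embryos. It carries the strand limit given above. Every humanized sample lay above every wild type one, and it was the only member of which this held, against 1.61% of all genes, and 0 members lay lower in every humanized sample, against 0.892% (log2 fold change 0.41, SE 0.14, adjusted p = 0.577). Rpl10a, a protein of the L1 stalk, had 334, 435, 304 and 363 and 489, 433, 495 and 385 CPM, and the groups overlapped (log2 fold change 0.30, SE 0.12, adjusted p = 0.577). The log2 fold changes of Rplp1, Rpl41 and Rpsa were 0.40, 0.32 and 0.29, with the same adjusted p of 0.577. Erythroid markers lay on the same side, 8 of 8 above 0 with a median of 0.65 and 5 with an unadjusted p under 0.05, and summed 4190 ± 1001 CPM in humanized and 2560 ± 831 CPM in wild type samples (SD, n = 4 each). Mitochondrial ribosomal proteins had 68 of 77 genes above 0 with a median of 0.11, and the proteasome list 28 of 37 with a median of 0.11. On the other side of 0 lay 8 of 9 diencephalon markers, with a median of -0.42, and 5 of 6 neuron markers, with a median of -0.32 and 2 with an unadjusted p under 0.05. The 3 neighbouring region markers tested, Emx1, En1 and En2, lay above 0 with a median of 0.47. None of these lists had a gene past the adjusted threshold, and their part in the result was not tested.

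At E17.5 the members lay on the other side. Of the 77 genes, 68 were below 0 with a median of -0.30, beside 9844 of all 18763 genes with a median of -0.03. Of the protein-coding genes, 8280 of 14371 were below 0, with a median of -0.08. In the family, 1 of the 77 genes had an unadjusted p under 0.05, against 1.1% of 18763 genes. That number was 0 without humanized replicate 2 and 9 without wild type replicate 2, 7 with no filter and 4 in 1 fit of all 16 samples. No member separated the genotypes at E17.5, where 0.73% of all genes were lower and 0.48% higher in every humanized sample. The 5 smallest p-values were those of Rpl13a, Rps4l, Rps2, Rplp1 and Rpsa. Rpl13a, which carries the counting limit above, had 16.4, 6.69, 8.96 and 7.50 CPM in wild type and 5.23, 3.40, 7.03 and 5.92 CPM in humanized embryos, with 2 samples inside the range of the other group (log2 fold change -0.88, SE 0.33, adjusted p = 0.808). Rps2, a protein at the mRNA entry of the small subunit, had 625, 215, 270.1 and 250.3 and 239, 187, 255 and 228 CPM, and most of the difference came with wild type replicate 1 (log2 fold change -0.59, and -0.12 without it). Likewise Rpsa had -0.62, and -0.05 without that library, and the median of the 77 genes was -0.10 without it, with 75 below 0. Of all 19236 genes tested without that library, 9977 were below 0, with a median of -0.006. At E17.5 samples of the same replicate number varied together for replicates 1 and 2 (r of 0.572 and 0.635) and weakly for 3 and 4 (0.110 and 0.268). Replicates 3 and 4 matched best with samples of other numbers. In all 4 pairs of the same number, 27 of the 77 genes (35.1%) were lower in the humanized sample, against 11.6% of all genes. Among them were Rpl13a, Rps4l, Rps2, Rplp1 and Rpsa. The members share these libraries, and replicates 3 and 4 did not match best by number, so this count is a description. With the replicate number as a block the median of the members was -0.28 and none was called.

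Other lists lay on the same side at E17.5. Mitochondrial ribosomal proteins also had 68 of 77 genes below 0, with a median of -0.23, and -0.08 without wild type replicate 1. The proteasome list had medians of -0.27 and -0.06, in the same order. The 5 erythroid markers tested were all below 0 with a median of -0.46, and all above 0 with a median of 0.15 without that library. Microglial markers had medians of -0.68 and -0.07, and astrocyte markers of -0.46 and -0.13. No gene of these lists passed the adjusted threshold, and their part in the result was not tested.

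The difference between the genotype effects at E17.5 and E11.5, tested as an interaction over all 16 samples, passed the test for no member and for 0% of 20234 genes. Unadjusted p-values under 0.05 were found in 21 of the 77 genes, against 7.96% of all genes, and the median interaction was -0.56. It was -0.34 without E17.5 wild type replicate 1. The number of members with an unadjusted p under 0.05 ranged from 3 to 54 when single samples were left out, and was 35 with no filter and 10 with coding length offsets. Among the 5 smallest p-values were those of Rpl13a (log2 value -1.13, SE 0.36), Rplp1 (-0.93, SE 0.35), Rps2 (-0.96, SE 0.38) and Rps16 (-0.84, SE 0.36), each with an adjusted p of 0.462. Without E17.5 wild type replicate 1 the values of these genes were -0.77, -0.64, -0.49 and -0.48, in the same order.

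The level of the family in a library went with the composition of that library. In each library, the deviation of genes outside the family from their stage mean was regressed on exonic GC content and on exonic length, and the slopes were set beside the median deviation of the 77 ribosomal protein genes. Over the 8 libraries of E11.5, the median deviation and the GC slope had r = 0.918 and rho = 0.738, and r was 0.814 without the 2 libraries farthest from the median slope. For the length slope at E11.5, r was -0.978 and rho -0.929, and r was -0.972 without the 2 farthest libraries. The sign of r turned when the length slope was taken from genes under 2000 nucleotides only, with r = 0.376 (rho 0.167) at E11.5, and 0.661 without the 2 farthest libraries. At E17.5 these slopes gave r = 0.522, but rho was -0.07. There r was -0.49 without wild type replicate 1 and humanized replicate 3, the 2 farthest libraries, so that the turn rested on these. For the GC slope from genes under 2000 nucleotides, the early libraries had r = 0.938, or 0.857 without the 2 farthest. The late libraries had r = 0.861 with it, which dropped to 0.518 without wild type replicate 1 and humanized replicate 2, the 2 farthest. At E17.5, r with the GC slope was 0.827 (rho 0.690) and 0.265 without the 2 farthest libraries, so that the relation rested on these, and r with the length slope was -0.815 (rho -0.905) and -0.613 without the 2 farthest. The lowest family value at E11.5, -0.31 on the log2 scale, was that of wild type replicate 3, which also had the lowest GC slope (-0.41) and the highest length slope (0.07). The highest at E17.5, 0.65, was that of wild type replicate 1, with the highest GC slope of 1.06. The points share libraries and normalization, both genotypes are mixed in them, and the relation is given as a description with no test.

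**Figure D4:**
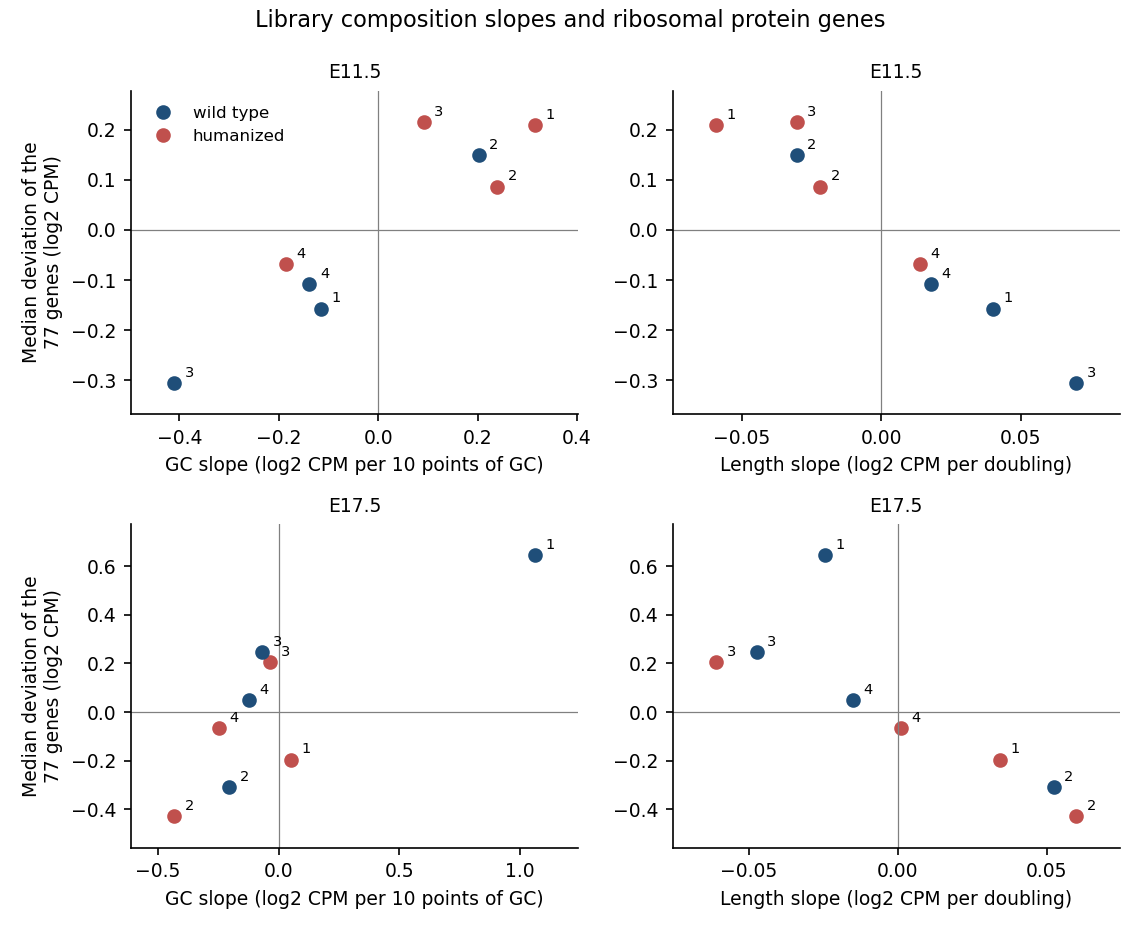
Median deviation of the 77 ribosomal protein genes from their stage mean (y axes, log2 CPM) against the slope of all other genes on exonic GC content (left, per 10 percentage points) or exonic length (right, per doubling) in each library. Points are libraries with their replicate numbers, blue for wild type and red for humanized, with E11.5 above and E17.5 below. At E11.5 the 8 libraries lie along a rising line with GC (r = 0.918) and a falling line with length (r = -0.978), which turned with slopes from genes under 2000 nucleotides (r = 0.376).

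Within the family, the effect of E17.5 wild type replicate 1 followed the coding GC content of the genes. Relative to the other 3 wild type samples of E17.5, the 25 genes of lowest coding GC (44.9% to 50.6%) had a median deviation of -0.01 on the log2 scale, and 11 of them lay above 0. The middle 25 genes had a median of 0.65 with 23 above 0, and the 25 genes of highest GC (54.7% to 61.6%) had 1.14 with all 25 above 0. Across the 75 genes the deviation and the coding GC content had r = 0.677 and rho = 0.678. Rps24, with 46.2% GC, had 247, 479, 649 and 594 CPM in the 4 samples, so that replicate 1 was lowest, and Rpl30, with 44.9% GC, had 55.8, 79.2, 126 and 113 CPM with the same order. Rps2, with 58.4% GC, and Rpsa, with 56.7% GC, had their highest late values in it, as given above. Rps27l, with 46.0% GC, lay inside the range of its group. In the humanized stage comparison, which this library does not enter, coding GC and log2 fold change had r = -0.367 and rho = -0.500 across the 75 genes, and the medians of the genes of low, middle and high GC were -1.20, -1.48 and -1.60.

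**Figure D5:**
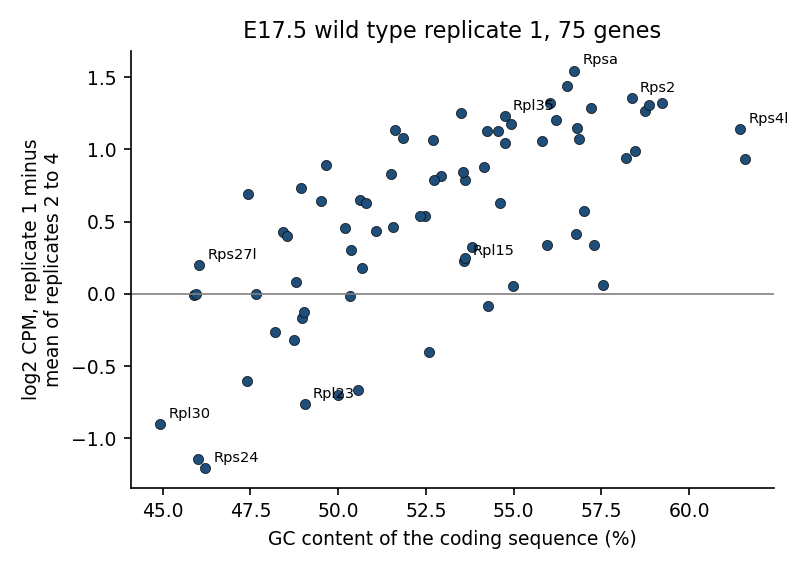
Deviation of E17.5 wild type replicate 1 from the mean of replicates 2 to 4 (y axis, log2 CPM) for 75 ribosomal protein genes against the GC content of their coding sequence (x axis, percent). Each point is a gene, and several genes described in the text are named. The 25 genes of lowest GC have a median near 0 (-0.01) and the 25 of highest GC a median of 1.14.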

How the data were processed

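Poly(A)-selected RNA of 16 diencephalon samples and the peak lists of wild type embryos, with those of humanized embryos for H3K4me3 and H3K27ac, were used. The deposited counts are whole numbers of reads per gene, which the authors obtained by aligning to mm39 with STAR 2.7.9a and the GENCODE annotation, release 31. Lines that name no gene (48.1% to 58.4% of reads) entered neither library sizes nor tests. The deposited peak lists were called by the authors per replicate with MACS2 2.2.7.1 after alignment with Bowtie2 2.4.2. They give a fold enrichment (a ratio to local background) and -log10 of the q-value of each peak, and a score and -log10 of the p-value, which were not used. Of 56923 gene IDs, 56236 matched GENCODE release M39 (GRCm39).

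Counts of the unstranded column passed edgeR's filterByExpr, were scaled by TMM factors and entered the quasi-likelihood test of edgeR 4.0.16 (R 4.3.3, limma 3.58.1), on the 8 samples of each comparison, or on all 16 for the interaction, with Benjamini-Hochberg adjustment over all genes tested and a threshold of 0.05. SE is the absolute log2 fold change divided by the square root of F. Levels between genes are per kb of coding sequence, in place of the exonic length first planned, because some canonical transcripts have very long ends. Each sample is a pool from 1 litter, and no 2 libraries agreed within sampling noise. Genotype groups share replicate numbers. At E17.5 the deviations of samples with the same number had correlations of 0.572, 0.635, 0.110 and 0.268. Replicates 3 and 4 matched best with samples of other numbers. The numbers were thus not shown to pair all samples there, and the main tests had no replicate block. Intervals and limits from counts cover counting error only. Members, gene lists and tests were chosen with earlier results of these data known. Named genes were set by rule: relatives and their parents, the 5 highest and 5 lowest levels, the 5 largest changes called or, with fewer than 3 calls, the 5 smallest p-values, 9 members with known roles, and the largest changes of each list. Some genes this rule takes are not reported here. Alternatives were DESeq2 1.42.0, its size factors in edgeR, TMM factors without the members, no filter, the strand column, 1 fit of all samples, the replicate block, offsets for GC content or length in 20 bins, pseudogene counts added, and leaving out each replicate. Offsets for coding GC content and coding length, the count over same-numbered pairs, and the lists and marker sums without E17.5 wild type replicate 1 were added after seeing the data. Scripts used Python 3.11.15, numpy 2.4.6, pandas 2.3.3 and matplotlib 3.10.9 and were tested on simulated data. Microglial, endothelial, meningeal, choroid plexus, oligodendrocyte and neighbouring region markers were tested too. By stage in wild type, 1 of 5, 2 of 5, 1 of 5, 2 of 4, 3 of 4 and 1 of 4 of these rose, and 0, 0, 4, 0, 0 and 1 fell.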

Additional observations from a re-analysis of the deposited data

Results flagged for a closer look

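In 108 groups of 4 samples (26 named members and the family's share, in each genotype and stage), the highest or lowest sample was compared with the spread of its group, and 6 groups held a sample far from the other 3. Chance flags about 1 in 20 such groups. In wild type at E17.5, replicate 1 stood far above the other samples for Rpsa (1264 CPM, others 416 to 459), Rplp0 (698 CPM, others 257 to 311), Rps2 (625 CPM, others 215 to 270.1) and Rplp2 (189 CPM, others 74.8 to 92.5). The same library had the fewest reads outside annotated features and the highest GC slope of its stage. Its progenitor, astrocyte, oligodendrocyte lineage, erythroid, microglial, endothelial, meningeal, diencephalon and neighbouring region marker sums were above those of the other wild type samples of E17.5. The part of these in the 4 values was not tested. Rpl31 was far below its group in E17.5 wild type replicate 2 (218 CPM, others 322 to 344). Rps24 was far above its group in E11.5 wild type replicate 2 (1091 CPM, others 963 to 979.9).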

How the results depend on the processing

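No alternative gave a ribosomal protein gene past the threshold between the genotypes or for the interaction, and the medians of the members kept their sign under each alternative. Of all genes, DESeq2 called 2 in the early and 1 in the late comparison of the genotypes, and a single fit of all 16 samples called 1 at E11.5, where edgeR called 0 at both stages. The number of members that fell with stage in wild type lay between 48 (coding length offsets) and 74 (1 fit of all samples), and between 51 (without E11.5 replicate 2) and 75 (without E17.5 replicate 1) when single replicates were left out, with 9147 to 13994 genes called in all. In humanized embryos it was 77 except for 76 with coding GC offsets and 74 with coding length offsets. The humanized stage median was -1.46 as reported, -1.20 with GC offsets and -1.10 with length offsets. The genotype medians were 0.16 and -0.18 with GC offsets and 0.14 and -0.26 with length offsets, the early stage first, and the interaction median was -0.36 and -0.47. Of 1020 values of 51 single-gene stage results, 973 kept their direction and side of the threshold, 26 lost and 12 gained significance, and 9 reversed, all 9 for Rps4l in wild type, whose change was near 0. These were 0.024 with DESeq2's size factors, 0.0199 with DESeq2, 0.024 with GC offsets, 0.21 with length offsets and 0.13 with coding length offsets, and 0.049 to 0.19 when E11.5 replicate 2 or E17.5 replicate 2, 3 or 4 was left out. Over all 8 single replicates its change ran from -0.40 to 0.19. The cause was not tested.

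With the replicate number as a block, no member was called between the genotypes at either stage. For the stage comparisons, the block gave 70 members that fell in wild type (67 without it) and 77 in humanized embryos. For the interaction it gave 39 members with an unadjusted p under 0.05 (21 without it) and 0 called. The correlations of same-numbered samples ran from 0.0314 to 0.214 between the genotypes at E11.5, from -0.602 to 0.450 between the stages in wild type and from -0.277 to 0.413 in humanized embryos.

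With all reads, including those on no gene, as the denominator, the family's share was 1.74% and 0.864% in wild type at E11.5 and E17.5 and 1.98% and 0.657% in humanized embryos. When single replicates were left out, the shares lay between 3.497% and 3.88%, 1.65% and 1.93%, 4.15% and 4.41%, and 1.404% and 1.63%, in the same order. The correlation of the family with the length slope reversed when only genes under 2000 nucleotides were used, to 0.376 (E11.5) and 0.522 (E17.5), and the latter was -0.49 without wild type replicate 1 and humanized replicate 3. The cause was not tested. It was -0.949 at E17.5 in the strand column. Leaving out single libraries gave r between 0.856 and 0.965 for GC and between -0.993 and -0.961 for length at E11.5, and between 0.611 (without wild type replicate 1) and 0.876 for GC and between -0.984 and -0.743 for length at E17.5. Members with an H3K27me3 peak in every list numbered 1 at E11.5 with the gene's outer end as start. At E17.5 they numbered 0 with a -log10 q of at least 5, 3 with a window of 1000 bases and 2 with the outer end. CTCF peaks that cover the start itself were found at 25 members. The shares of other marks stayed within 1.5 times of the main value. Depth is not known for peak lists, so their widths and heights carry no interval.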
